A study of Mus musculus with 6 samples.

Results

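Cohesin is the ring-shaped protein complex that holds sister chromatids together, and its 9 subunit genes are described here in germ cells of the mouse fetal testis with and without Rb1. The genes were taken by name from the deposited table, 9 of its 27998 gene rows, as a family in which Smc1b stood higher in all Rb1 cKO samples. The values of Smc1b between genotypes are therefore a description and carry no test. The other subunits came in as members of the family, but the members were chosen with earlier results of these data known.

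Single-cell RNA sequencing was done on 3 samples of Rb1 cKO germ cells, which carry a conditional knockout of the retinoblastoma gene, and on 3 control samples labelled wildtype. All 6 came from male embryos at embryonic day 14.5 of mixed C57/B6 and 129 strain, and all were sorted for the red fluorescent protein tdTomato before capture with 10x Genomics v2 chemistry. The labels name no Cre line and no deleted region, and they do not say whether replicates came from separate animals, so the p-values reflect differences among these libraries that may be technical only. After filtering, 2589 Rb1 cKO cells (480, 945 and 1164) and 2565 control cells (781, 430 and 1354) remained, with 7598511 to 17323152 unique molecular identifiers (UMIs, 1 for each captured transcript molecule) in a sample.

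The core of cohesin is a ring of the ATPases SMC1 and SMC3 closed by a kleisin subunit, to which a STAG subunit binds. Dividing cells use SMC1A, RAD21 and STAG1 or STAG2, while germ cells entering meiosis also make SMC1B, the kleisins REC8 and RAD21L, and STAG3. In the male mouse, germ cells at this age are prospermatogonia on the way to mitotic arrest, and meiosis starts only after birth. The retinoblastoma protein binds some E2F transcription factors. Separately, E2F6 is known to repress SMC1B and STAG3 in somatic cells, and no tie between E2F6 and the retinoblastoma protein is meant here.

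The promoters of the subunits are shown for their E2F motifs. The RefSeq table (GRCm38.p6) held 7 of the 9, without Rad21 and Stag2. Each covers 250 bases before to 50 bases after a start given there. That start need not be the first base of the gene positions given below. A core E2F motif, TTCCCGC, was searched on both strands (its other strand reads GCGGGAA), and it was found in Smc1b, Smc1a, Stag1 and Stag3, 4 of 7, against 1511 of all 32851 promoters in the table, or 4.60%. The E-box CACGTG was found in Stag3 alone of the 7, and in 7.15% of all promoters. Neither motif overlaps the other. The 250 bases before the start of Smc1b, on the minus strand at chr15:85131958-85132207, are printed 5′ to 3′ with the TTCCCGC match in capitals.
Smc1b promoter: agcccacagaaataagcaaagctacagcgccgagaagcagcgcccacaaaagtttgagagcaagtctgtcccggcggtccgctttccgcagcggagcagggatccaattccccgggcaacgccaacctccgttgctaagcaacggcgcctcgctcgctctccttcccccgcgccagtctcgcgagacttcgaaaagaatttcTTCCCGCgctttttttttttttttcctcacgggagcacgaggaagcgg
The match begins 48 bases before the start. It is set beside those of the other promoters as stretches of 30 bases, each on the strand of its gene, with the same capitals. They lie at chr15:85131987-85132016 (minus strand) for Smc1b, chr5:138280495-138280524 (plus) for Stag3, chr9:100643421-100643450 (plus) for Stag1 and chrX:152016448-152016477 (plus) for Smc1a.
Smc1b: aaaagaatttcTTCCCGCgctttttttttt
Stag3: tatcccgtgccTTCCCGCgtttttttctaa
Stag1: aaaggccacgtTTCCCGCgccgctgctgcg
Smc1a: cggcttgcactgcgctatTTCCCGCgcggg
The match begins 3 bases before the RefSeq start in Stag3, 16 bases before it in Stag1 and 38 bases after it in Smc1a. For Smc1b, Stag1 and Stag3 that start lies inside the gene position given below. The Smc1b bases before it end at 85131958 on the minus strand, whereas the gene begins at 85131964. The Stag1 bases before it end at 100643447, whereas the gene begins at 100597798. For Stag3 they end at 138280508, whereas the gene begins at 138280240. The matches are of letters in a fixed window, and no binding was measured. They are spread over mitotic and meiotic subunits. Ribc2, the neighbour of Smc1b, starts 114 bases away on the other strand and had too few counts to be tested. Its start at 85132078 falls within the bases printed for Smc1b, so part of that stretch lies in Ribc2.

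CPM are counts scaled to the library's total UMIs, with edgeR's TMM factor for Rb1 and without it for the marker sums below. Rb1 itself had 3.35, 3.73 and 3.64 CPM in the Rb1 cKO samples, against 10.3, 8.65 and 7.13 CPM in the controls. Every Rb1 cKO sample was below every control (log2 fold change −1.27, SE 0.19, adjusted p = 0.415 by edgeR's quasi-likelihood test), and the labels do not say whether the remaining 3′ tags lie outside the deleted part. Germ cell markers summed to 8302 to 9175 CPM in Rb1 cKO samples and to 8472 to 9381 CPM in controls. Markers of Leydig cells, macrophages and stroma were at 9.21 CPM or less in every sample. Sertoli markers summed to 7.97 to 12.1 CPM in Rb1 cKO samples and to 5.76 to 25.3 CPM in controls, highest in control 3. Platelet markers summed to 0.397 to 1.02 CPM in Rb1 cKO samples and to 1.15 to 52.1 CPM in controls, highest in control 2. Endothelial markers summed to 43.4 to 58.1 CPM in Rb1 cKO samples and to 49.9 to 68.9 CPM in controls, and erythroid markers to 6.15 to 24.1 CPM in Rb1 cKO samples and to 22.0 to 32.8 CPM in controls. The part of these markers in the results was not tested. Libraries shared 9 barcode sequences.

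In both genotypes these fetal germ cells held transcripts of mitotic and meiotic subunits together. Smc3, the SMC partner in every cohesin ring, was the most abundant, followed by the meiotic Smc1b, which exceeded its mitotic counterpart Smc1a. Among kleisins the mitotic Rad21 predominated, with little Rec8 and almost no Rad21l, and among STAG subunits Stag1 came first. Levels are TMM-scaled CPM of UMIs summed per sample. A UMI tags the 3′ end of a molecule, so no division by transcript length was made.

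**Figure D1:**
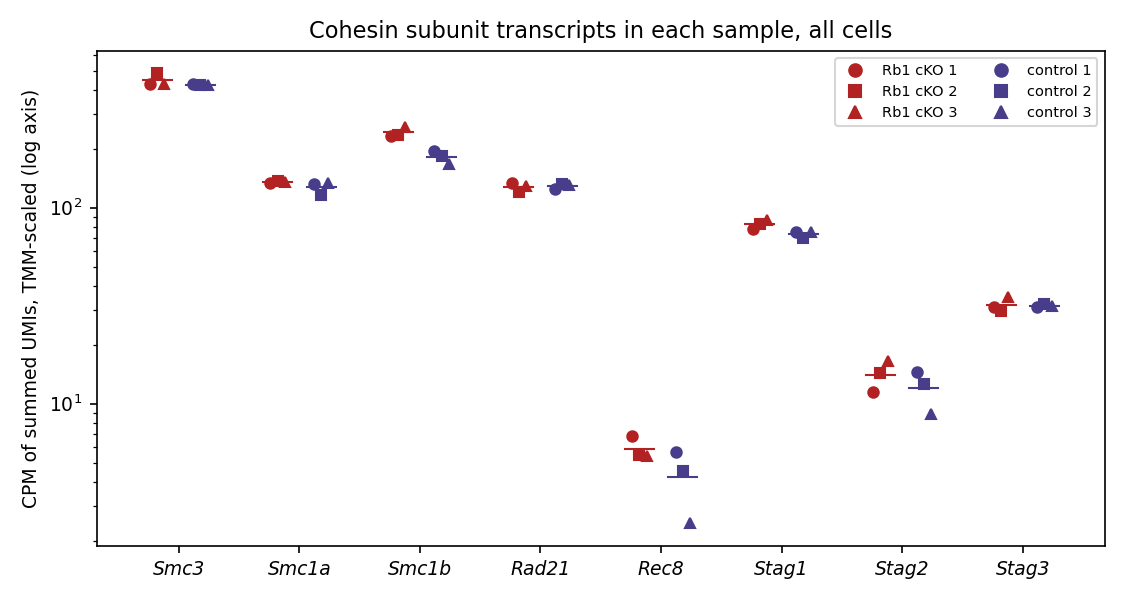
Level of each tested cohesin subunit in the 6 samples, as TMM-scaled CPM of UMIs summed over all cells (log axis), with Rb1 cKO left of control and the horizontal line at the mean of 3 samples. Smc1b lay between 233 and 258 CPM in Rb1 cKO samples and between 166 and 195 CPM in controls. Stag1 did not overlap either, at 78.2 to 86.6 CPM in Rb1 cKO samples and 70.2 to 75.0 CPM in controls. The other subunits shown overlapped between the genotypes.

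Smc3 (chromosome 19, 53600398 to 53645833, plus strand, GRCm38 with GENCODE M21, as for every gene position given) had 428, 485 and 430 CPM in the Rb1 cKO samples and 429, 421 and 420.2 CPM in the controls. The groups overlapped, and Rb1 cKO 2 stood above the other 5 samples. The log2 fold change of Rb1 cKO over control was 0.08 (SE 0.07, adjusted p = 0.994 by edgeR), and 0.02 without Rb1 cKO 2.

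Smc1b (chromosome 15, 85064689 to 85131964, minus strand), the meiotic form of SMC1, had 233, 236 and 258 CPM in the Rb1 cKO samples, against 195, 183 and 166 CPM in the controls. Every Rb1 cKO sample lay above every control, by which it was picked. The means were 242 ± 13.4 CPM in Rb1 cKO samples and 181 ± 14.4 CPM in controls (SD, n = 3 each), a fitted fold of 1.34 (log2 fold change 0.42, SE 0.08), resting on 1416 to 4242 UMIs in a sample. Smc1a (chromosome X, 152016428 to 152062694, plus strand), the mitotic form, had 133.6, 136.8 and 135 CPM in the Rb1 cKO samples and 131.8, 115.8 and 133.7 CPM in the controls. The groups overlapped by a narrow margin, with control 2 low, and the log2 fold change was 0.09 (SE 0.08, adjusted p = 0.994 by edgeR), and 0.03 without control 2. Both forms added up to 377 ± 13.6 CPM in Rb1 cKO samples and to 309 ± 15.9 CPM in controls (SD, n = 3 each), while Smc3, the partner of both, averaged 448 ± 32.4 CPM in Rb1 cKO samples and 424 ± 4.87 CPM in controls.

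Among the kleisins, Rad21 (chromosome 15, 51962240 to 51991747, minus strand), the mitotic form cut by separase, had 133.5, 120.6 and 129 CPM in the Rb1 cKO samples and 124, 132 and 131 CPM in the controls. The groups overlapped, with a log2 fold change of −0.01 (SE 0.07, adjusted p = 0.994 by edgeR). Rad21 and Smc1a were neighbours in the order of levels: their ranges overlapped in controls, and in Rb1 cKO samples the highest Rad21 value lay next to the lowest Smc1a value. Rec8 (chromosome 14, 55618037 to 55625395, plus strand), the kleisin that keeps sister chromatids together through the first meiotic division, had 6.83, 5.47 and 5.41 CPM in the Rb1 cKO samples and 5.67, 4.52 and 2.46 CPM in the controls. The groups overlapped, and control 3 was the lowest. The log2 fold change was 0.50 (SE 0.29, adjusted p = 0.994 by edgeR) from only 35 to 89 UMIs in a sample, and 0.18 without control 3. Rad21l (chromosome 2, 151645404 to 151668533, minus strand), a kleisin found in meiotic cells, had 1 UMI in all, in Rb1 cKO 3, and was not tested.

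Among the STAG subunits, Stag1 (chromosome 9, 100597798 to 100959375, plus strand), used in somatic and germ cells, had 78.2, 82.2 and 86.6 CPM in the Rb1 cKO samples, against 75.0, 70.2 and 74.8 CPM in the controls. Every Rb1 cKO sample lay above every control, but the log2 fold change of 0.17 (SE 0.08) did not pass the test (adjusted p = 0.994 by edgeR). Stag3 (chromosome 5, 138280240 to 138312393, plus strand), the meiotic form, had 31.0, 29.6 and 35.2 CPM in the Rb1 cKO samples and 31.1, 32.4 and 31.3 CPM in the controls. These overlapped, with a log2 fold change of 0.02 (SE 0.10, adjusted p = 0.994 by edgeR). Stag2 (chromosome X, 42149317 to 42277185, plus strand), the other mitotic form, had 11.4, 14.3 and 16.5 CPM in the Rb1 cKO samples and 14.5, 12.7 and 8.81 CPM in the controls. The groups overlapped (log2 fold change 0.26, SE 0.21, adjusted p = 0.994 by edgeR), and without control 3, the lowest, the log2 fold change was 0.07.

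Of the 8 subunits tested, 0 passed an adjusted p of 0.05 in edgeR, against 0% of 11540 genes tested. At an unadjusted p under 0.05 there were 405 genes (3.51%) and 1 subunit, Smc1b, which had been picked on this contrast. DESeq2 called 4 genes, none of them a subunit. Both Smc1b and Stag1 lay above the controls in every Rb1 cKO sample, 2 of 8, against 4.71% of genes tested. Smc1b was picked for this, so only Stag1 of the 7 other subunits adds to that count. For 0 of 8 did every Rb1 cKO sample lie below, against 4.23%. The log2 fold change was positive for 7 of 8 subunits, Smc1b among them by that choice, with a median of 0.13. Of all genes, 50.1% were positive, with a median of 0.00.

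Summed over all cells, the meiotic form took a larger share of SMC1 transcripts in Rb1 cKO samples and a slightly smaller share of STAG transcripts. Smc1b made up 63.6%, 63.3% and 65.6% of SMC1 UMIs in the Rb1 cKO samples, against 59.7%, 61.2% and 55.4% in the controls. The groups did not overlap, and the means were 64.2% ± 1.27 in Rb1 cKO samples and 58.8% ± 2.99 in controls (SD, n = 3 each), 5.39 percentage points apart. Stag3 made up 25.7%, 23.5% and 25.4% of STAG UMIs in the Rb1 cKO samples, against 25.8%, 28.1% and 27.3% in the controls. Every Rb1 cKO sample was lower, by the smallest of margins for Rb1 cKO 1 against control 1. Rec8 with Rad21l made up 4.87%, 4.34% and 4.06% of kleisin UMIs in the Rb1 cKO samples and 4.37%, 3.31% and 1.84% in the controls, which overlapped. These shares draw on the contrast by which Smc1b was picked and were not tested.

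**Figure D2:**
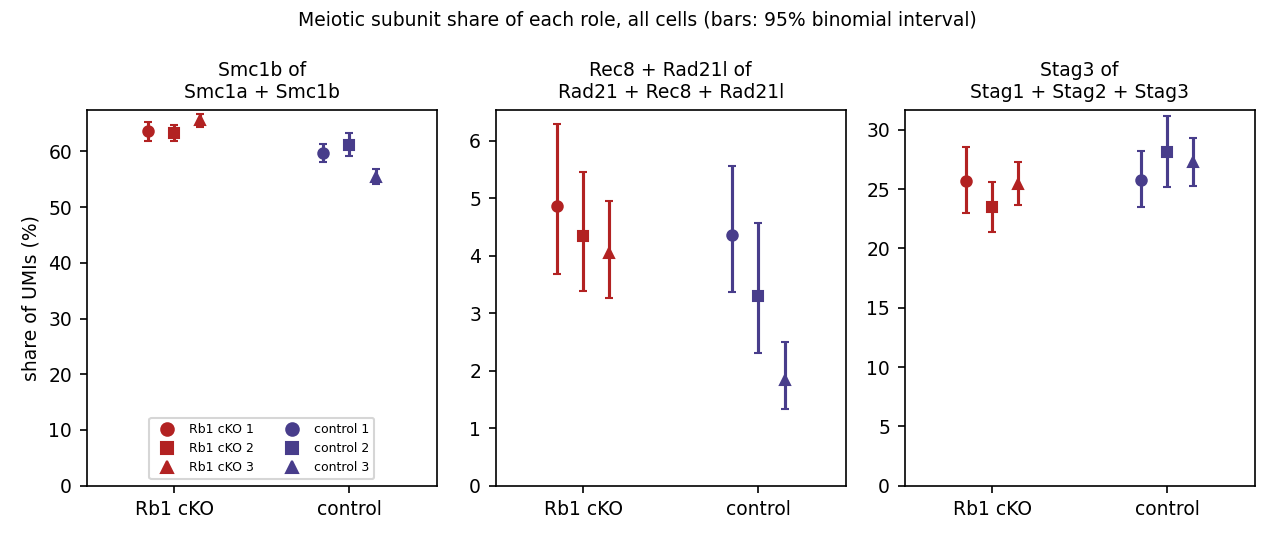
Share of UMIs (percent, all cells) that came from the meiotic form in each role, for each sample with its exact 95% binomial interval, which covers counting error only; Rb1 cKO is left of control. Smc1b of SMC1 lay between 63.3% and 65.6% in Rb1 cKO samples and between 55.4% and 61.2% in controls.

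The authors' metadata divide the cells into 5 numbered clusters without cell type names. Clusters 0 to 3 had at least 20 cells in every sample, whereas cluster 4 held 98 cells in all and was not tested. Cluster 0 (2210 cells) was led by Ccne1 and E2f8, which act at entry into DNA replication, cluster 1 (1863 cells) by Cdc20, Hmmr and Ccnb1, genes of mitosis, and cluster 2 (640 cells) by replication-dependent histone genes such as Hist1h2bm. In cluster 3 (343 cells) Pf4, a platelet gene, ranked first, but all of its 357 UMIs there lay in 1 cell of control 2. Slc39a1, Rpgrip1 and Notch2, next in rank, had UMIs in all 6 samples of that cluster. The clusters were built from all genes, so differences between them are described and not tested.

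Smc3, Smc1a, Smc1b, Stag1 and Stag3 had their highest mean levels in the histone-rich cluster 2, in both genotypes, and lower ones in the mitotic cluster 1. Within a sample, cluster 2 over cluster 1 averaged 1.71 for Smc1a (range 1.61 to 1.84 over 6 samples), 1.45 for Smc1b (1.32 to 1.65) and 1.52 for Stag1 (1.39 to 1.59). Smc3 had a smaller ratio of 1.23 (1.17 to 1.29), and Stag3 and Stag2 had 1.42 (1.19 to 1.75) and 1.74 (1.29 to 2.51). Rad21 ran the other way, at 0.87 (0.76 to 0.96), lower in cluster 2 than in cluster 1 in all 6 samples. Rec8 was sparse in every cluster, and its cluster 0 level was 3.63 times its cluster 1 level on average (1.71 to 5.51).

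**Figure D3:**
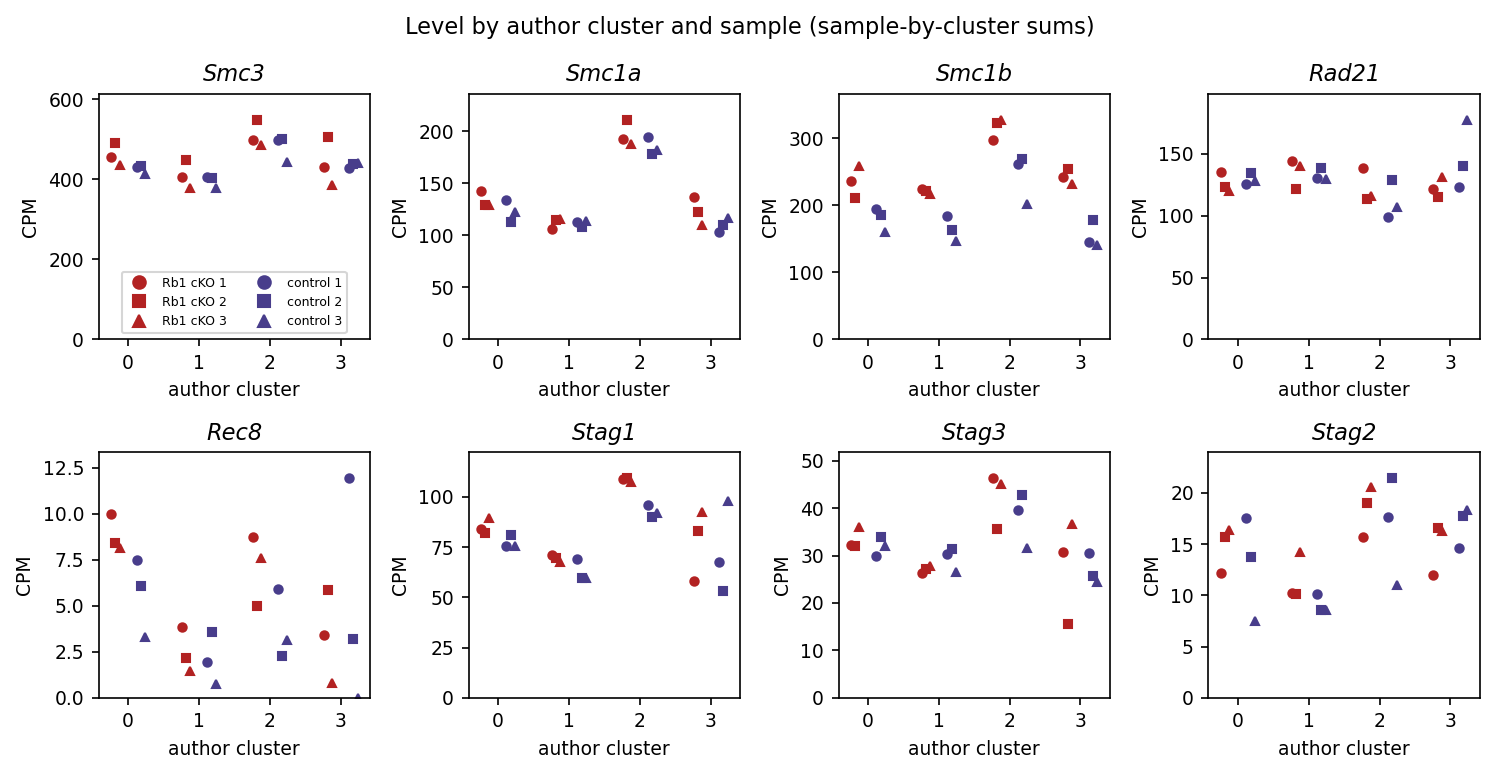
CPM of 8 cohesin subunits in UMIs summed by sample and author cluster (clusters 0 to 3 along each horizontal axis), with Rb1 cKO samples left of controls in each cluster and axes that start at 0. Smc1b is higher in each Rb1 cKO sample than in each control within each of the 4 clusters, and Smc1a, Smc1b and Stag1 are high in cluster 2.

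Smc1b stood higher in Rb1 cKO samples within each of these clusters, so its difference was present in cells led by replication genes and in cells led by mitotic genes. In cluster 0 it had 236, 212 and 259 CPM in Rb1 cKO samples, against 193.8, 186 and 159.6 CPM in controls. In cluster 1 it had 224, 221 and 217 CPM in Rb1 cKO samples, against 184, 163.7 and 146.6 CPM in controls. In cluster 2 it had 296.9, 322 and 327.6 CPM in Rb1 cKO samples, against 261, 269 and 201 CPM in controls. The groups did not overlap in any of these 3 clusters, with log2 fold changes of 0.38 (SE 0.10), 0.41 (SE 0.09) and 0.37 (SE 0.11) in that order. In cluster 3 Smc1b had 241.6, 253.6 and 232.5 CPM in Rb1 cKO samples, against 145.8, 178.8 and 140.8 CPM in controls, again without overlap. The log2 fold change there was 0.62 (SE 0.13), and control 3 contributed 25 cells with a median of 4654 UMIs. The share of Smc1b in SMC1 UMIs did not overlap between genotypes in clusters 1, 2 and 3, but in cluster 0, the largest, it overlapped, at 62.1% to 66.7% in Rb1 cKO samples and 56.5% to 62.3% in controls. The share of Stag3 in STAG UMIs overlapped in clusters 0, 2 and 3 and was lower in every Rb1 cKO sample in cluster 1 alone, where it averaged 25.1% in Rb1 cKO samples and 29.1% in controls.

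Among the other subunits, Stag1 and Smc3 were positive in all 4 clusters, whereas Smc1a, Rad21, Stag2 and Stag3 had both signs. Stag1 had log2 fold changes of 0.13, 0.13, 0.21 and 0.27 in clusters 0 to 3, Smc3 had 0.10, 0.03, 0.08 and 0.01, and Smc1a had 0.10, −0.01, 0.07 and 0.17. Those of Rad21 were −0.05, 0.01, 0.12 and −0.18, those of Stag2 were 0.24, 0.35, 0.26 and −0.07, and those of Stag3 were 0.06, −0.12, 0.17 and 0.00. Rec8 had enough UMIs for the test in cluster 0 alone, where it had 9.97, 8.43 and 8.13 CPM in Rb1 cKO samples and 7.51, 6.09 and 3.31 CPM in controls. These did not overlap, and the log2 fold change of 0.67 (SE 0.28, adjusted p = 0.9995 by edgeR) was 0.34 without control 3. Without control 3, the log2 fold change of Stag2 turned to −0.07 in cluster 0 and to −0.04 in cluster 2.

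**Figure D4:**
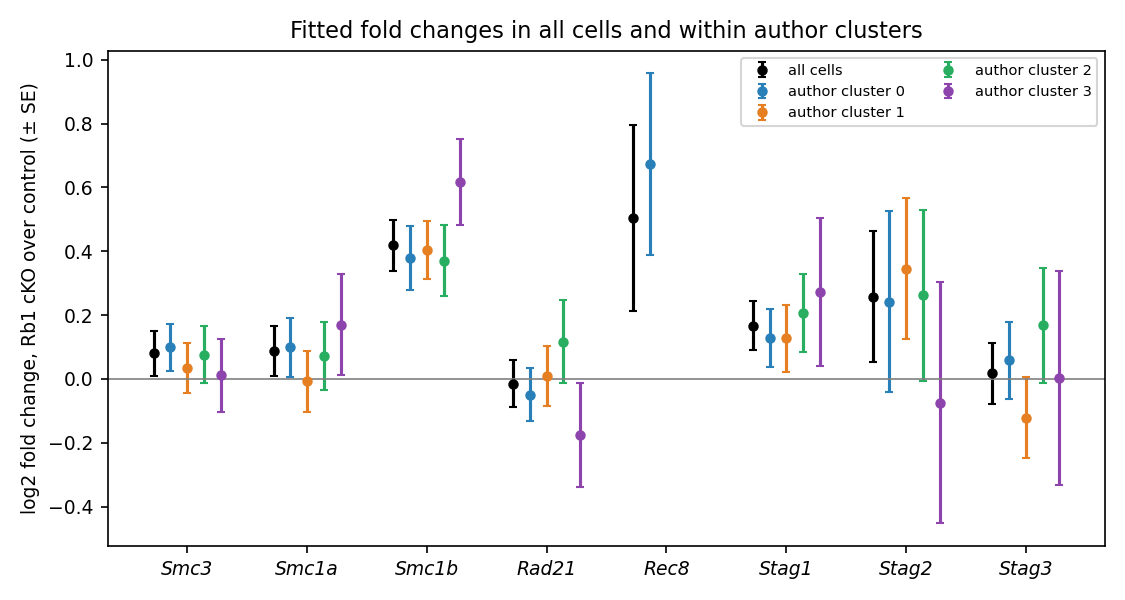
Fitted log2 fold change of Rb1 cKO over control with its standard error for 8 cohesin subunits, in all cells and in author clusters 0 to 3. Smc1b is positive throughout, from 0.37 to 0.62, while Rad21, Stag2 and Stag3 fall on both sides of 0.

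By edgeR, 0 subunits passed the test in any of the 4 clusters, against 0% of the 10091, 9889, 7895 and 5996 genes tested there, and 392 (3.88%), 333 (3.37%), 319 (4.04%) and 202 (3.37%) genes had an unadjusted p under 0.05. The subunits at that level were Smc1b and Rec8 in cluster 0, 2 of 8, and Smc1b alone, 1 of 7, in each of clusters 1 to 3. Every Rb1 cKO sample lay above every control for 4 of 8 subunits in cluster 0 (Smc3, Smc1b, Rec8 and Stag1), against 4.88% of genes. The same held for 1 of 7 in cluster 1 (Smc1b, against 4.65%), 2 of 7 in cluster 2 (Smc1b and Stag1, against 4.47%) and 1 of 7 in cluster 3 (Smc1b, against 5.07%). Smc1b was picked on this contrast in all cells, so its place in all these counts is no result. Besides it, clusters 1 and 3 held no subunit above in every Rb1 cKO sample. For 0 subunits did every Rb1 cKO sample lie below every control, against 4.79%, 4.59%, 4.86% and 4.49% of genes in clusters 0 to 3. A test of genotype by cluster, with the sample as a block, called 0 of the 8 subunits (adjusted p = 0.999 for each by edgeR) and 0% of 10029 genes, 474 of which (4.73%) had an unadjusted p under 0.05. For Smc1b, the fitted difference between its cluster 3 and cluster 0 effects was 0.31 on the log2 scale, and it did not pass this test.

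In single cells, more of the Rb1 cKO cells had an Smc1b UMI, and at equal depth the mean number of Smc1b UMIs a cell was higher. To compare equal depth, each cell was thinned to 10000 UMIs, which left out 25, 91 and 66 Rb1 cKO cells and 43, 13 and 218 control cells as too shallow. An Smc1b UMI was then present in 88.8%, 87.9% and 87.5% of cells in the Rb1 cKO samples, against 81.0%, 78.4% and 78.5% in the controls. At least 3 UMIs were present in 42.9%, 42.0% and 41.7% of Rb1 cKO cells and in 30.5%, 29.98% and 20.9% of control cells. Neither measure overlapped between the genotypes, and the mean was 2.44, 2.38 and 2.48 UMIs a cell in Rb1 cKO samples, against 1.94, 1.94 and 1.60 in controls. Fewer Rb1 cKO cells were at 0 UMIs and more were at 3 or more, and most control cells also had Smc1b. Without thinning, the shares were 93.3%, 92.5% and 93.6% in Rb1 cKO samples and 88.2%, 92.1% and 82.3% in controls. The unthinned means overlapped, at 3.15 to 3.91 UMIs a cell in Rb1 cKO samples and 2.05 to 3.29 in controls. No cluster was identified as another cell type for comparison, so the share that free RNA would give was not measured.

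**Figure D5:**
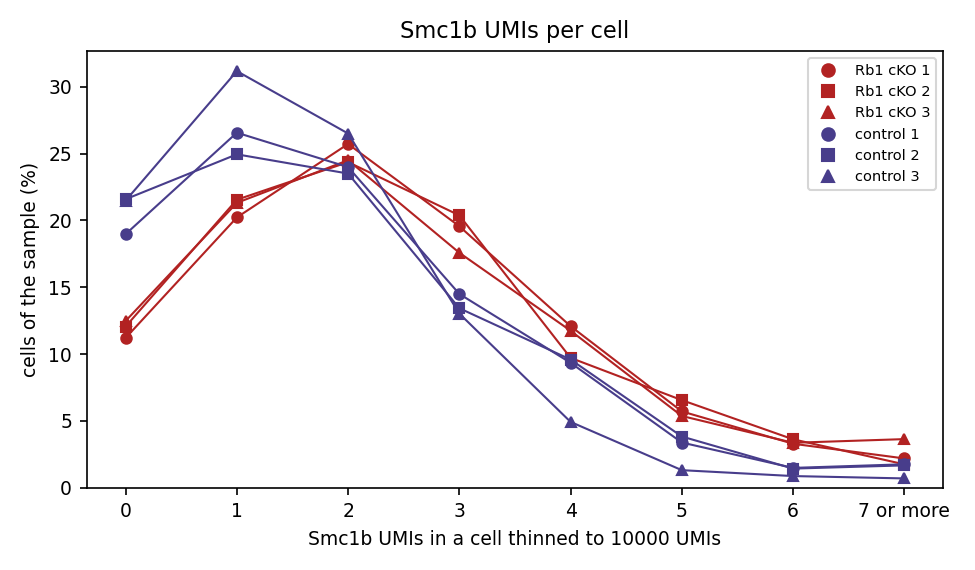
Percent of cells of each sample (vertical axis) with a given number of Smc1b UMIs after thinning each cell to 10000 UMIs (horizontal axis), with 1 line per sample. At 0 UMIs the Rb1 cKO samples lie at 11.2% to 12.5% and the controls at 19.0% to 21.6%.

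For the other subunits, the thinned shares of cells with a UMI averaged 98.9% in Rb1 cKO samples and 97.6% in controls for Smc3. They averaged 72.0% in Rb1 cKO samples and 70.3% in controls for Smc1a, and 69.8% in Rb1 cKO samples and 72.0% in controls for Rad21. Stag1 was found in 54.5% of Rb1 cKO and 50.8% of control cells, Stag3 in 26.5% of Rb1 cKO and 26.1% of control cells, Stag2 in 12.8% of Rb1 cKO and 11.3% of control cells, and Rec8 in 5.77% of Rb1 cKO and 3.85% of control cells. Smc1b was not the only subunit without overlap on this measure. Every Rb1 cKO sample lay above every control for Smc3, Smc1a and Stag1, and below every control for Rad21. The margins were narrow, as for Stag1 (lowest Rb1 cKO sample 51.65%, highest control 51.63%). Thinned to 5000 UMIs, only Stag1 of these did not overlap. The share of all genes without overlap on this measure was not computed. Rad21l had 0 UMIs after thinning, which by counting error allows up to 0.273% to 0.659% of cells with a UMI in Rb1 cKO samples and up to 0.264% to 0.719% in controls. This limits cells with a UMI at this depth, not cells that express the gene.

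The few cells with a Rec8 UMI also tended to hold more Smc1b. Thinned cells with Rec8 had 2.60, 2.78 and 3.57 Smc1b UMIs on average in Rb1 cKO samples 1 to 3, against 2.43, 2.36 and 2.42 in cells of those samples without Rec8. In controls 1 and 3 the means were 2.21 and 2.20 in cells with Rec8, against 1.93 and 1.59 in cells without it, and control 2 had under 20 cells with Rec8. The mean was higher in 5 of 5 samples, from 25 to 53 cells with Rec8 each. Within cluster 0 alone, cells with Rec8 had 2.55, 2.58 and 4.06 Smc1b UMIs in Rb1 cKO samples, against 2.46, 2.12 and 2.38 without it, whereas control 1 had 1.75 against 1.87. With the meiotic Stag3 as partner the difference was −0.08 to 0.28 UMIs (higher in 5 of 6 samples), and with the mitotic Smc1a it was −0.08 to 0.35 (higher in 4 of 6).

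Across 26 sums by sample and cluster, the genes most like Smc1b in log2 CPM, of 4953 compared, were Mns1 (Pearson r = 0.861), which is needed for sperm flagella, Ptma (0.841), Spice1 (0.836), a centriole gene, Rbm44 (0.819) and Tpr (0.814), a nuclear pore gene. Among the subunits, Smc3 (0.65, rank 91), Stag1 (0.59, rank 182) and Smc1a (0.58, rank 200) were closer to Smc1b than Stag3 (0.24, rank 1569). Rad21 was inverse (−0.49, rank 4693). The sums include cluster 4 of Rb1 cKO 3 (20 cells) and of control 3 (27 cells). They share libraries and clusters. Both genotypes are among them, so the correlations also carry the difference by which Smc1b was picked. These values are descriptions.

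Genes that load, release or protect cohesin did not pass the test. Of 20 such genes in the table, 18 were tested, with 0 at an adjusted p under 0.05 in edgeR (0% of all genes tested) and 0 at an unadjusted one (3.51% of all genes). Positive log2 fold changes numbered 12 of 18, with a median of 0.04, against 50.1% and 0.00 for all genes. The list was chosen with earlier results of these data known. The most abundant were Pttg1, the securin that holds separase inactive (232 ± 5.78 CPM in Rb1 cKO samples and 236 ± 11.8 CPM in controls), Wapl, which releases cohesin from chromatin (166 ± 21.4 CPM in Rb1 cKO samples and 157 ± 11.8 CPM in controls), and Esco2, which acetylates SMC3 in S phase (154 ± 13.4 CPM in Rb1 cKO samples and 150.5 ± 12.4 CPM in controls, SD, n = 3 each). Nipbl and Mau2, which form the cohesin loader, were the 2 of 18 for which every Rb1 cKO sample lay above every control (4.71% of all genes), and are named after their values were seen. Nipbl had 70.0, 77.4 and 73.0 CPM in Rb1 cKO samples, against 66.0, 69.0 and 55.2 CPM in controls (log2 fold change 0.22, adjusted p = 0.994 by edgeR).

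Genes of the meiotic chromosome axis, synaptonemal complex and meiotic entry were mostly above control without passing the test. Of 16 in the table, 15 were tested and 0 passed in edgeR (0% of all genes tested), with 1, Hormad1, at an unadjusted p under 0.05 (3.51% of all genes). The log2 fold change was positive for 14 of 15, with a median of 0.24, against 50.1% and 0.00 for all genes. This list too was chosen with earlier results of these data known, so the count is a description. A positive sign could go with 1 sample. Stra8 had 2.61, 2.22 and 17.4 CPM in Rb1 cKO samples and 5.58, 9.56 and 2.40 CPM in controls, and is named after its values were seen. The most abundant was Syce2, of the central element (371 ± 14.4 CPM in Rb1 cKO samples and 364 ± 49.4 CPM in controls, SD, n = 3 each). It was followed by 4930447C04Rik (68.4 ± 7.95 CPM in Rb1 cKO samples and 63.2 ± 8.32 CPM in controls) and Rec114, which promotes meiotic DNA breaks (42.8 ± 2.42 CPM in Rb1 cKO samples and 47.6 ± 7.61 CPM in controls). Hormad1, an axis protein, and Mei4, a partner of Rec114, were the 2 of 15 for which every Rb1 cKO sample lay above every control (4.71% of all genes), and are named after their values were seen. Hormad1 had 50.2, 43.9 and 45.6 CPM in Rb1 cKO samples, against 39.2, 38.2 and 40.3 CPM in controls (log2 fold change 0.24, adjusted p = 0.994 by edgeR). Mei4 had 5.96, 6.74 and 5.71 CPM in Rb1 cKO samples, against 5.03, 5.42 and 5.21 CPM in controls (log2 fold change 0.23, adjusted p = 0.994 by edgeR).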

How the data were processed

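The authors deposited UMI counts for 27998 genes in 5160 cell barcodes and a table of each barcode's sample and cluster. Cell Ranger, Seurat 3.0 and mm10 are named, per the submitters' processing notes, without parameters or annotation release. The counts are whole numbers and were used as deposited. A filter of 500 or more genes and less than 10% mitochondrial counts took out 6 barcodes. Doublets were not called again, and how the authors treated them is not given in the sources used here. Counts were summed per sample, and per sample and author cluster where every sample had at least 20 cells. Sums were tested with edgeR 4.0.16 (R 4.3.3, TMM, filterByExpr, robust quasi-likelihood F test, two-sided, no covariate), with Benjamini-Hochberg adjustment over all genes tested and a threshold of 0.05. Each standard error is the size of the log2 fold change divided by the square root of its F statistic. DESeq2 1.42.0 was an alternative. The script was tested on simulated data with known changes. Levels in all cells are TMM-scaled CPM, while marker sums and levels within clusters are plain CPM. For likeness, genes averaging at least 20 CPM were compared on log2(CPM + 1). Every sum of at least 20 cells was used there, also where other samples of the cluster had fewer. Binomial intervals are exact Clopper-Pearson at 95%, and limits for a count of 0 use 3 counts. Both cover counting error only. All 9 subunits are named, and of the regulator and meiotic axis lists those named are the 3 with the highest mean level and any that passed the test. Nipbl, Mau2, Hormad1, Mei4 and Stra8 were added after their values were seen. The members and lists were chosen with earlier results of these data known.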

Additional observations from a re-analysis of the deposited data

How the results depend on the processing

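In all cells the log2 fold change of Smc1b was 0.36 to 0.47 over 13 alternatives, and it was positive in all 45 alternatives run in all cells and in clusters. Within cluster 3 it was 0.54 to 0.74 with 1 sample left out, highest without control 2. Smc1b did not overlap between genotypes in all cells, by which it was picked, nor in clusters 0 to 3. Its sign with 1 sample left out was therefore fixed in advance, and the count of positive alternatives is no sign of stability. Other subunits were called in 0 of 291 alternatives, and 23 of these gave the other sign, 20 of them with a sample left out. In all cells, DESeq2 called 4 genes, edgeR without a low-count filter 6, and edgeR with 1 sample left out 0 to 4 (4 without control 3). In clusters 0, 1 and 2 it called 0 to 2 genes with 1 sample left out, and in cluster 3 it called 0 to 3 (3 without control 1, 2 without control 3), with 1 called under the replicate block. The genotype by cluster test without a low-count filter called 7. The thinned share of cells with Smc1b differed by 8.76 points, against 5.62 without thinning and 12.6 at 5000 UMIs. For Stag3 this difference was 0.46 points, but −0.15 without thinning, −0.56 at 5000 UMIs, and −0.84 to 1.32 with 1 sample left out (alternatives for shares with a sample left out were added after seeing the data). The cause was not tested. Deviations from the group mean correlated at −0.303, 0.362 and 0.157 between same-numbered samples, which does not show that the numbers pair them. With 3 samples a group, such values cannot exclude a pairing either. With the replicate block, 0 genes were called in all cells and Smc1b stayed at 0.42. The main limits are 3 samples a group and the low counts of Rec8 and Stag2.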
